A study of Arabidopsis thaliana with 8 samples.

Results

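The chloroplast genome of *Arabidopsis thaliana* carries a small set of genes for photosynthetic complexes, for the plastid gene expression machinery and for ribosomal and transfer RNAs, and its transcripts were counted here in 12-DAG seedlings (12 days after germination) of the *ubp5* mutant and of the wild type Col-0. Members were all identifiers that begin with ATCG in the count files, and those with 10 or more counts summed over the 8 libraries were kept. Of 133 such identifiers among the 37336 in the files, 86 were kept and 73 of these entered the test. The *ubp5* line is homozygous for a deletion made with CRISPR/Cas9 and 2 guide RNAs in UBP5, the gene of a nuclear ubiquitin-specific protease. It is 1 deletion line, made in the Col-0 background, and the control is wild-type Col-0. Whole seedlings of both genotypes were grown on MS agar in long days, and 4 libraries were made for each genotype.

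Chloroplast genes are read by a bacterial-type RNA polymerase encoded in the chloroplast, which needs nuclear-encoded sigma factors to find its promoters, and by a phage-type polymerase encoded in the nucleus. Most plastid transcripts are made as long precursors that are cut and trimmed. Unlike nuclear mRNAs, they carry no stable poly(A) tail, and the short A-rich tails that plastid RNAs do receive mark them for breakdown. The libraries were primed with oligo(dT), which pairs with runs of A, so the counts measured the fraction of chloroplast RNA that such a primer could reach and not the whole chloroplast transcript pool. The count files hold identifiers without names or lengths. Chloroplast identifiers are therefore given as the files give them, and their values are counts that are not corrected for length. The plastid annotation used here names only a few of the 133, through notes on related nuclear genes. Aligning those nuclear sequences with the plastid genes pointed ATCG00420 to ndhJ and ATCG00430 to ndhK (both subunits of the plastid NDH complex), ATCG00530 to cemA (an envelope membrane protein), ATCG00660 to rpl20 and ATCG01310 to rpl2 (both ribosomal proteins), and ATCG00670 to clpP (the proteolytic subunit of the Clp protease).

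The stretch around the longest run of A on the sense strand is shown for 3 of these genes, because the libraries were primed at A and because reads with more than 1 mapping position were dropped. Each is 30 bases, written 5′ to 3′ on the strand of the gene, from the RefSeq plastid genome of TAIR10.1, with the A-run in capitals.
clpP (intron, Pltd:70396-70425, minus strand): tcacaccgtAAAAAAAAAAAAAgacacttt
rpl20 (coding exon, Pltd:68512-68541, minus strand): tatacaatttcgaatgacatAAAAAAAtaa
rpl2 (coding exon, Pltd:84422-84451, minus strand, and Pltd:154198-154227, plus strand): tccaattggtagAAAAAAAcccgtaacccc
The run in clpP was 13 bases long, and clpP held 6 runs of 8 or more. The run in rpl20 was 7 bases and stood directly before the stop codon. The letters of the rpl2 run were the same in both copies of the gene, which lie in the inverted repeat. Of the 127 plastid genes of the annotation that were examined (all but the trans-spliced rps12), 24 (18.9%) held a run of 8 or more A on the sense strand, the median longest run was 5 and the longest was 14. A run of A is a description of the sequence, and whether a primer used it was not tested.

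Part of the plastid genome is present in 2 copies, and reads from such sequence were not counted. The plastid genome of 154478 bp holds a repeat of 26264 bp in inverted copies, at 84171-110434 and 128215-154478. All 31 annotated genes that lie inside a copy had no 55-base stretch (the read length) that was unique in the genome, while 75 of the 96 genes outside the copies were unique at every 55-base stretch. In the counts, 39 of the 133 identifiers were at 0 in all 8 libraries. They included all 18 identifiers between ATCG00840 and ATCG01000 and all 18 between ATCG01140 and ATCG01310, and the other 3 were ATCG00060, ATCG00460 and ATCG00610. ATCG01310, matched to rpl2, had 0 counts in the 4 *ubp5* libraries and 0 in the 4 Col-0 libraries, and both copies of rpl2 had 0% unique 55-base stretches. The positions of the other identifiers are not known from the sources used here, so the link between these blocks and the repeat was not tested. A further 8 identifiers had between 1 and 9 counts, 22 counts together. Just inside the minimum of 10 stood ATCG00390 with 14 counts, ATCG00600 with 16, and ATCG00010 and ATCG00410 with 21 each. Just outside it stood ATCG01030 with 5 counts and ATCG00320 and ATCG00370 with 4 each.

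A few transcripts made up most of the chloroplast signal. The 133 identifiers held 729701 of the 19182580 counts in the series. ATCG00340 alone held 136302, or 18.7% of the chloroplast counts, followed by ATCG01050 with 86075, ATCG00220 with 68742, ATCG01020 with 52350 and ATCG00470 with 49822. These 5 took 53.9% of all chloroplast counts, the first 10 took 74.7% and the first 20 took 89.4%. The 13 kept identifiers that did not enter the test had 14 to 71 counts each.

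**Figure D1:**
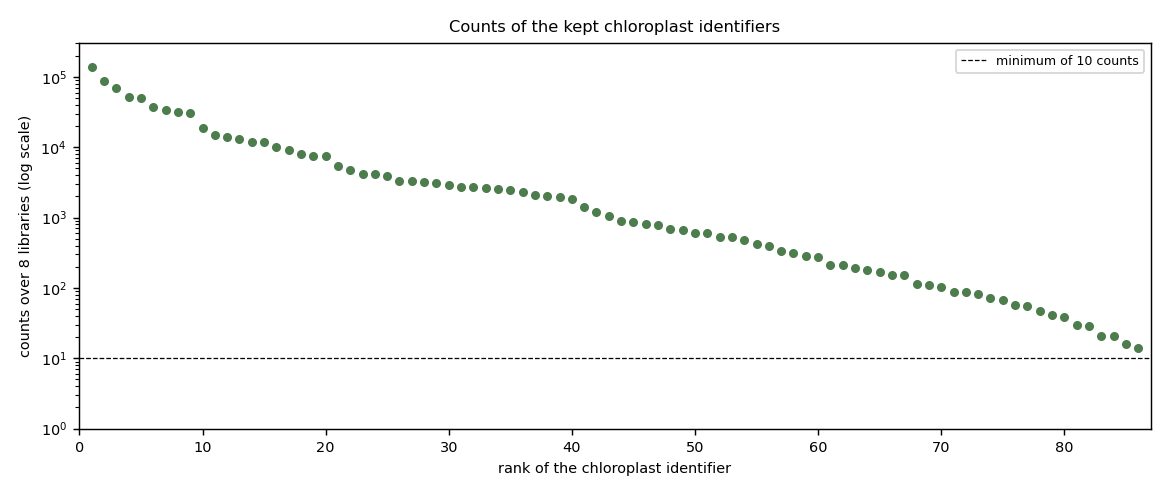
Counts summed over the 8 libraries for the 86 kept chloroplast identifiers, ordered by count, on a log axis, with the minimum of 10 counts as a dashed line. The values run over 4 orders of magnitude, between 136302 for ATCG00340 and 14 for ATCG00390.

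Library totals were 1440510 to 2595285 counts in *ubp5* and 2572842 to 2997743 in Col-0, and 3 counts, the smallest number taken to show a transcript, corresponded to 1.15 to 2.11 CPM (counts scaled to library size) in *ubp5* and 1.00 to 1.19 CPM in Col-0. UBP5 (AT2G40930) had 14, 13, 6 and 16 counts in *ubp5*, against 47, 57, 32 and 51 in Col-0, and its log2 fold change was -1.53 ± 0.25 (SE, edgeR adjusted p = 0.00236). Whether the counted 3′ end lies within the deleted stretch was not examined, so this is a limited check of the labels. All libraries are of whole seedlings, so a change in the share of a cell type and a change of RNA per cell cannot be told apart. Col-0 replicate 4 stood apart from the other Col-0 libraries in its mitochondrial share. It held 1.03% mitochondrial counts, while the other 3 Col-0 libraries held 0.423% to 0.522%. The chloroplast shares of Col-0 replicates 1 to 4 rose in near-even steps, at 2.45%, 3.03%, 3.67% and 4.26%. Replicate 4 was the highest Col-0 library for 51 of the 73 tested chloroplast members, and replicate 1 was the lowest for 48.

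Chloroplast transcripts took a larger mean share of the library in *ubp5*, but the groups overlapped. In *ubp5* replicates 1 to 4 the chloroplast identifiers took 4.77%, 4.03%, 4.74% and 4.13% of all counts, against 2.45%, 3.03%, 3.67% and 4.26% in Col-0 replicates 1 to 4. Col-0 replicate 4 lay above *ubp5* replicates 2 and 4, and the other 3 Col-0 libraries lay below every *ubp5* library. The mean share was 4.42% ± 0.396 in *ubp5* and 3.35% ± 0.787 in Col-0 (SD, n = 4 each), a ratio of 1.32 and a difference of 1.07 percentage points. This difference exceeded both SDs. No p is given, because the share is a sum over the chosen members. Counting error was small beside the spread, since the exact 95% binomial intervals (Clopper-Pearson) spanned 0.0479 to 0.0695 points in *ubp5* and 0.0373 to 0.0458 points in Col-0. They cover counting error only. Without Col-0 replicate 4 the mean Col-0 share was 3.05% ± 0.612 (SD, n = 3) and the ratio was 1.45. Leaving out the Col-0 library with the highest share raises this ratio by construction.

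Mitochondrial transcripts, which lack a stable poly(A) tail too, took a larger mean share in *ubp5* as well. They took 1.09%, 0.981%, 0.978% and 0.736% of counts in *ubp5*, against 0.423%, 0.517%, 0.522% and 1.03% in Col-0. The mean shares were 0.945% ± 0.148 in *ubp5* and 0.624% ± 0.277 in Col-0 (SD, n = 4 each), a ratio of 1.52. Without Col-0 replicate 4 the Col-0 mean was 0.487% ± 0.0558 (SD, n = 3) and the ratio was 1.94. That library again had the highest Col-0 share, so the ratio had to rise. Chloroplast counts per mitochondrial count were lower in *ubp5*, at 4.39, 4.10, 4.85 and 5.61, against 5.78, 5.86, 7.03 and 4.13 in Col-0. Only Col-0 replicate 4 lay within the *ubp5* range of this ratio. The direction of the chloroplast difference therefore depended on what it was measured against. The ratio of means was 1.32 against all counts and 0.832 against mitochondrial counts. The latter was 0.762 without Col-0 replicate 4, the Col-0 library with the fewest chloroplast counts per mitochondrial count. In the edgeR fit, all 8 tested mitochondrial identifiers had positive log2 fold changes, with a median of 0.94, and 4 were called higher, against 1.91% of all genes.

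**Figure D2:**
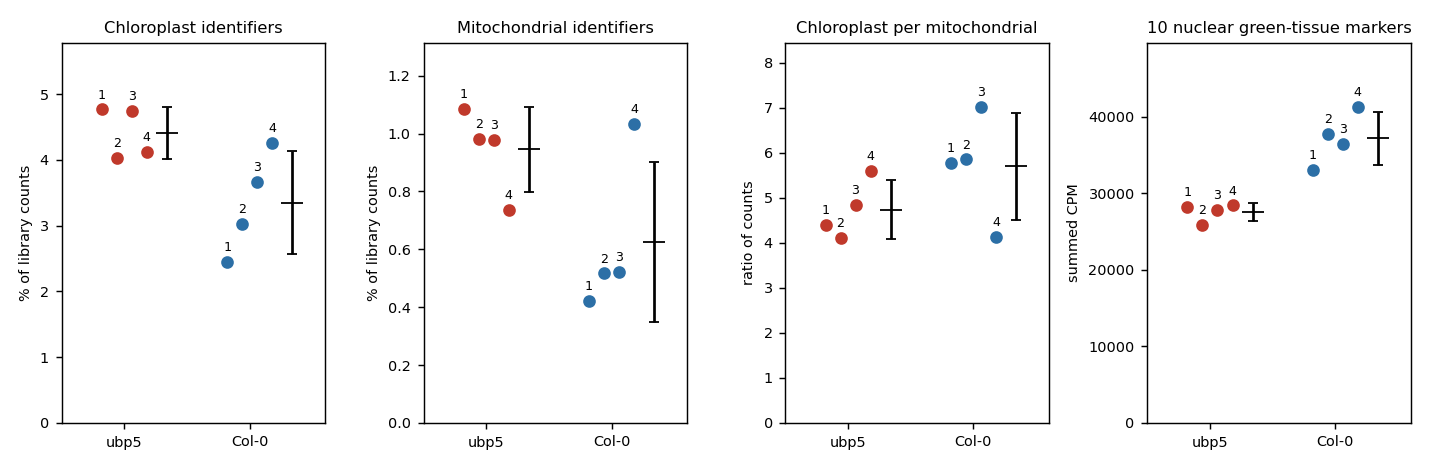
Share of library counts taken by chloroplast and by mitochondrial identifiers, chloroplast counts per mitochondrial count, and the summed CPM of 10 nuclear green-tissue markers, with 1 numbered point per replicate library, *ubp5* on the left and Col-0 on the right, and black marks for the mean and SD. The chloroplast share averaged 4.42% in *ubp5* and 3.35% in Col-0, and Col-0 replicate 4 is the highest Col-0 library in both organelle shares and in the marker sum.

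Several markers of green tissue were lower in *ubp5*. The 10 nuclear genes of the list, among them genes of the small Rubisco subunit and of light-harvesting and photosystem proteins, summed to 25865 to 28434 CPM in *ubp5* and 33074 to 41357 CPM in Col-0, and the groups did not overlap. RBCS1A was the largest part of that sum, at 12873 ± 553 CPM in *ubp5* and 18040 ± 2534 CPM in Col-0 (SD, n = 4 each). Of the 10, 5 were lower in *ubp5* at an adjusted p under 0.05 and 1 of these passed the fold threshold as well, against 6.34% and 2.93% of all genes, while 0 were higher by edgeR (0 also at an unadjusted p under 0.05 and by DESeq2). The 5 lower genes were LHCB2.1 (a light-harvesting protein of photosystem II), RBCS3B and RBCS1A (small Rubisco subunits), LHCA1 (a light-harvesting protein of photosystem I) and RCA (Rubisco activase), with log2 fold changes of -1.12, -0.66, -0.49, -0.48 and -0.36. The rest, PSBO1, PSAD1, RBCS1B, RBCS2B and PETE1, had -0.29, -0.26, -0.11, -0.03 and 0.06, with edgeR adjusted p between 0.131 and 0.931. The summed root markers, 12 genes of which 7 were tested, ran between 1650 and 2136 CPM in *ubp5* and between 1276 and 1714 CPM in Col-0, and overlapped. PYK10, a root glucosidase, made up most of that sum, at 1762 ± 229 CPM in *ubp5* and 1376 ± 199.5 CPM in Col-0 (SD, n = 4 each; edgeR adjusted p = 0.116), and 4 of the 7 tested genes had negative log2 fold changes. PHO1, a phosphate exporter, was lower at -0.90 (edgeR adjusted p = 0.00501), 1 of 7 against 6.34% of all genes, and 0 were higher (1 at an unadjusted p under 0.05, 0 by DESeq2). No gene of either list was at 0 in all libraries. The part of these markers in the chloroplast values was not tested.

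Gene by gene, nearly all chloroplast transcripts had higher fitted values in *ubp5*, and few passed the test. Of the 73 tested members, 68 had positive and 5 negative log2 fold changes, with a median of 0.47, against a median of -0.01 and 48.4% positive over all 15649 genes tested. A call needed an adjusted p under 0.05 together with a change of at least 1 on the log2 scale, and by it ATCG00120 and ATCG00200 were higher, 2 of 73 (2.74%), against 1.91% of all genes called higher, a share near the background. None was called lower, by edgeR (0 also at an unadjusted p under 0.05) or by DESeq2, against 2.93% of all genes called lower in edgeR and 1.96% in DESeq2. Without the fold threshold, 8 members were higher and 0 lower, 11.0% against a background of 4.59% higher and 6.34% lower. At an unadjusted p under 0.05, 29 members were higher (39.7%), against 11.7% of all genes. Values of *ubp5* and Col-0 did not overlap for 10 members, all higher in *ubp5* (13.7%), against 7.87% of all genes not overlapping in this direction and 9.37% in the other. DESeq2 called 3 of the 73 members higher, ATCG00120, ATCG00200 and ATCG01080, and 10 at any fold (0 lower). Of the same 15649 genes, DESeq2 called 271 higher, and at any fold 610 higher and 696 lower. Over all 24365 genes in its fit, including rarer ones, 1.42% were called higher, and at any fold 2.81% higher and 3.26% lower.

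**Figure D3:**
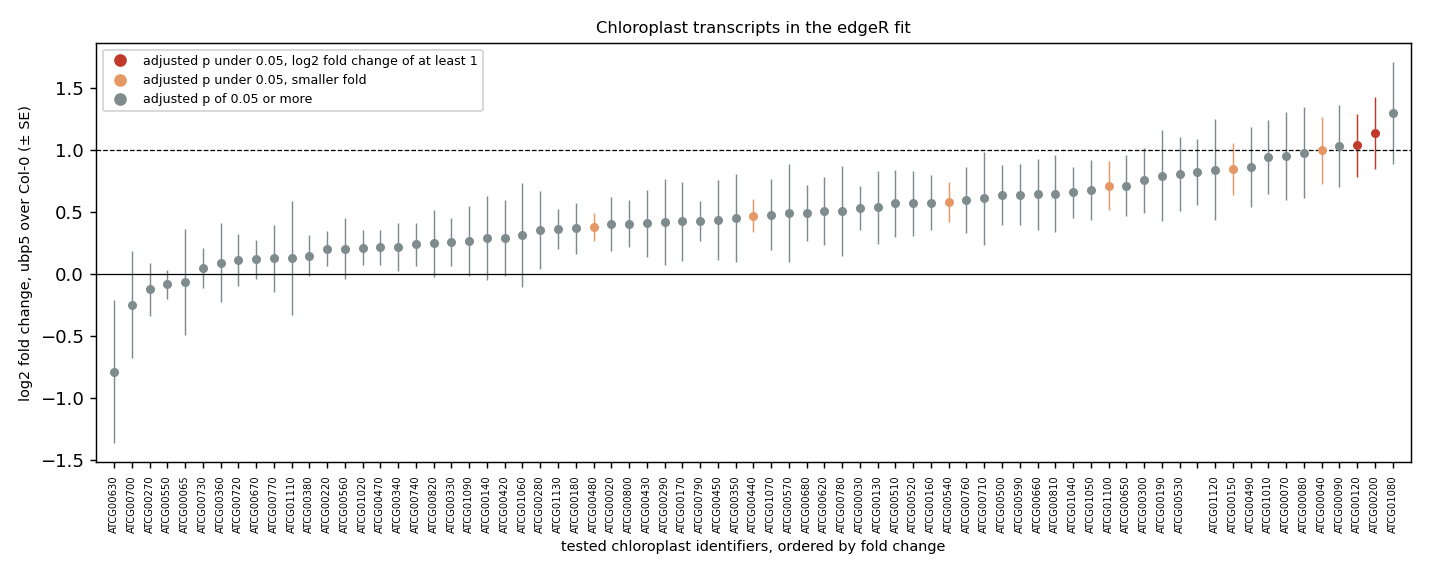
Log2 fold change of *ubp5* over Col-0 with its SE for the 73 tested chloroplast identifiers, in order of size, coloured by adjusted p and fold threshold, with lines at 0 and at the fold threshold of 1. The values lie between -0.79 and 1.29, and 68 of the 73 are above 0.

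ATCG00120 was the member with the smallest adjusted p. It had 34.7, 29.4, 30.3 and 29.0 CPM in the *ubp5* libraries, against 9.11, 9.53, 17.7 and 23.1 CPM in the Col-0 libraries. The groups did not overlap, and the *ubp5* libraries were tight while the Col-0 libraries spread widely. Its log2 fold change was 1.03 ± 0.25 (SE, edgeR adjusted p = 0.0215). It kept its call in 5 of the 8 fits that left out 1 library and lost it without *ubp5* replicate 1, Col-0 replicate 1 or Col-0 replicate 2.

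ATCG00200 was rarer, with 194 counts over all libraries against 416 for ATCG00120. It had 39, 27, 27 and 27 counts in *ubp5*, against 13, 13, 19 and 29 in Col-0, which came to 19.9, 10.3, 19.0 and 12.2 CPM in *ubp5* and 4.93, 5.16, 7.15 and 9.70 CPM in Col-0. The groups did not overlap after scaling, although *ubp5* replicate 2 had 10.3 CPM and Col-0 replicate 4 had 9.70 CPM. The log2 fold change was 1.13 ± 0.29 (SE, edgeR adjusted p = 0.0255), and the call was kept in 4 of the 8 fits without 1 library. It was lost without *ubp5* replicate 1 or 3 or Col-0 replicate 1 or 2.

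Another 6 members rose by less than the fold threshold. ATCG00040 came closest, with 1413, 854, 1125 and 806 CPM in *ubp5* against 324, 378, 564 and 839 CPM in Col-0, where Col-0 replicate 4 reached into the *ubp5* range, and its log2 fold change was 0.99 ± 0.27 (SE, edgeR adjusted p = 0.0338). Without Col-0 replicate 4, its highest Col-0 library, it was called, at 1.31 ± 0.23 (SE, edgeR adjusted p = 0.00469). It was also the only member of the group with an adjusted p above 0.05 in DESeq2, at 0.0742. ATCG00150 had 44.9, 51.6, 57.1 and 33.5 CPM in *ubp5*, against 19.4, 19.4, 32.0 and 32.1 CPM in Col-0. Its groups were split by a narrow gap, between 33.5 CPM in *ubp5* replicate 4 and 32.1 CPM in Col-0 replicate 4, and the log2 fold change was 0.85 ± 0.21 (SE, edgeR adjusted p = 0.0227). ATCG01100 had 36.2, 32.9, 31.7 and 29.4 CPM in *ubp5* against 15.9, 13.5, 22.9 and 26.8 CPM in Col-0, again without overlap (log2 fold change 0.71 ± 0.20, adjusted p = 0.0396).

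The other 3 of these 6 had smaller changes. ATCG00540 had 498, 417, 565 and 453 CPM in *ubp5* against 249.7, 308, 305 and 430.5 CPM in Col-0, with a log2 fold change of 0.58 ± 0.16 (SE, edgeR adjusted p = 0.0357). ATCG00440, with 31341 counts the most abundant member to pass the test, had 2093, 1546, 1955 and 2265 CPM in *ubp5* against 1227, 1439.5, 1457 and 1565 CPM in Col-0 (log2 fold change 0.47 ± 0.13, adjusted p = 0.0430). Both overlapped between the groups by a single library. ATCG00480 had the smallest change to pass, with 262, 233, 244 and 265 CPM in *ubp5* against 176, 209, 170.0 and 218 CPM in Col-0. Its groups did not overlap (log2 fold change 0.37 ± 0.11, adjusted p = 0.0488). None of these 6 passed the test in more than 4 of the 8 fits that left out 1 library. The adjusted p stayed under 0.05 in 4 of the 8 fits for ATCG00040 and ATCG00150, in 3 for ATCG00540, in 2 for ATCG00440 and ATCG01100 and in 1 for ATCG00480. In the fit without Col-0 replicate 4, the highest Col-0 library for each of the 6, it was under 0.05 for all 6.

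**Figure D4:**
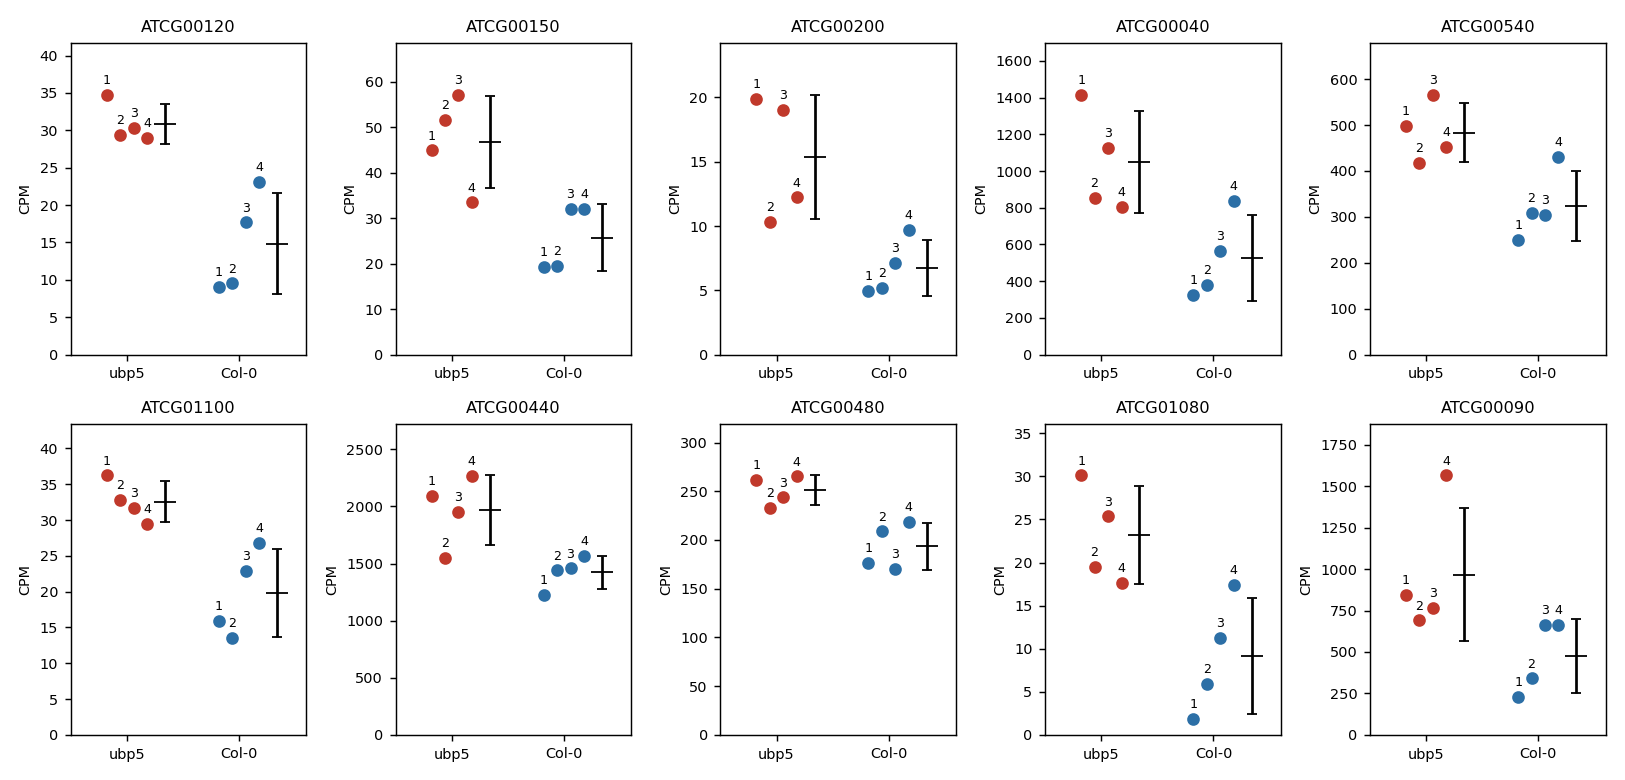
CPM in each library for the 8 members with an adjusted p under 0.05, in order of adjusted p, and for ATCG01080 and ATCG00090, with numbered points for the replicates, *ubp5* on the left and Col-0 on the right, and black marks for the mean and SD. In ATCG00120 the *ubp5* libraries lie at 29.0 to 34.7 CPM and the Col-0 libraries at 9.11 to 23.1 CPM, and Col-0 replicate 4 is the highest or among the highest Col-0 libraries in every panel.

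The largest fitted fold change did not pass the edgeR test with all 8 libraries. ATCG01080 had 30.1, 19.5, 25.4 and 17.6 CPM in *ubp5*, against 1.90, 5.95, 11.3 and 17.4 CPM in Col-0. The groups did not overlap, but *ubp5* replicate 4 at 17.6 CPM nearly met Col-0 replicate 4 at 17.4 CPM. The log2 fold change was 1.29 ± 0.41 (SE, edgeR adjusted p = 0.0635), while DESeq2 gave an adjusted p of 0.0367. Without Col-0 replicate 4, its highest Col-0 library, the log2 fold change was 1.83 ± 0.39 (SE, edgeR adjusted p = 0.0150). ATCG01080 was then called, which it was in none of the other 7 such fits. ATCG00090, one of the 15 members with the most counts, had 846, 691, 766 and 1565 CPM in *ubp5* against 229, 341, 664 and 664 CPM in Col-0, with a log2 fold change of 1.03 ± 0.33 (SE, edgeR adjusted p = 0.0672). It was called in 1 of the 8 fits, that without Col-0 replicate 3 (adjusted p = 0.0478).

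Of the 5 members with the most counts, 4 had small changes and overlapping groups. ATCG00340 had 8881, 6997, 9034 and 6358 CPM in *ubp5* against 4956, 5406, 8084 and 8541 CPM in Col-0, and its log2 fold change was 0.21 ± 0.19 (SE, edgeR adjusted p = 0.538). Both groups covered much of the same range. ATCG01050 was the exception, with 5265, 5489.6, 7410.1 and 5018 CPM in *ubp5* and 2161, 2732, 4785 and 4844 CPM in Col-0, no overlap and a log2 fold change of 0.67 ± 0.24, but its adjusted p was 0.0961. ATCG00220, ATCG01020 and ATCG00470 had log2 fold changes of 0.20, 0.21 and 0.21 with overlapping groups and adjusted p of 0.409, 0.393 and 0.385. Of the rest of the first 15, ATCG00740, ATCG00330, ATCG00020, ATCG01130, ATCG00030, ATCG00650 and ATCG00800 had log2 fold changes of 0.23, 0.25, 0.40, 0.36, 0.53, 0.71 and 0.40, and adjusted p between 0.0811 for ATCG00030 and 0.456 for ATCG00330. Without Col-0 replicate 4, the highest Col-0 library for each, the edgeR adjusted p of ATCG00030, ATCG00650 and ATCG00800 was 0.0119, 0.0277 and 0.0400. For each of them it was under 0.05 in only 1 of the 8 fits that left out 1 library. Across abundance, the median log2 fold change was 0.42 in the 24 tested members with the most counts, 0.39 in the next 24 and 0.50 in the 25 with the fewest, while the median SE was 0.19, 0.28 and 0.32.

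None of the 5 tested members with a plastid gene given above passed the test in the fit of all 8 libraries. ATCG00530, matched to cemA, had 287, 128, 152 and 126 CPM in *ubp5* against 62.6, 75.0, 103 and 155 CPM in Col-0, and *ubp5* replicate 1 alone was far above the rest (log2 fold change 0.80 ± 0.30, edgeR adjusted p = 0.111). Its log2 fold change was 0.45 without *ubp5* replicate 1. Without Col-0 replicate 4, its highest Col-0 library, it was 1.11 ± 0.28 with an edgeR adjusted p of 0.0321, a call. The adjusted p of ATCG00530 was under 0.05 in only 1 of the 8 fits that left out 1 library. The ribosomal protein transcript ATCG00660 (rpl20) had 36.2, 27.1, 37.3 and 38.9 CPM in *ubp5* against 10.6, 15.5, 29.3 and 32.8 CPM in Col-0, with overlapping groups (log2 fold change 0.64 ± 0.29, adjusted p = 0.179). The NDH subunit transcripts ATCG00420 (ndhJ) and ATCG00430 (ndhK) had log2 fold changes of 0.29 ± 0.31 and 0.41 ± 0.27 with adjusted p of 0.612 and 0.379. ATCG00670 (clpP), whose gene held the long A-run shown above, had 135, 89.0, 90.2 and 110.4 CPM in *ubp5* against 107, 93.3, 77.9 and 113 CPM in Col-0, the smallest difference of the 5 (log2 fold change 0.11 ± 0.16, adjusted p = 0.702).

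The 5 members with negative fold changes were ATCG00630, ATCG00700, ATCG00270, ATCG00550 and ATCG00065, at -0.79, -0.25, -0.13, -0.09 and -0.07, and their adjusted p ran between 0.427 and 0.946. The value of ATCG00630 rested on a single library. It had 67, 114, 81 and 44 counts in *ubp5* against 64, 43, 142 and 496 in Col-0, or 34.2, 43.5, 57.1 and 19.9 CPM in *ubp5* against 24.3, 17.1, 53.4 and 166 CPM in Col-0. Without Col-0 replicate 4 its log2 fold change was 0.26. That of ATCG00065 was 0.44 without the same library, and those of ATCG00700 and ATCG00270 were 0.26 and 0.0597 without Col-0 replicate 3. ATCG00550 stood at 219 to 258 CPM in *ubp5* and 225 to 300.2 CPM in Col-0.

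Replicates of Col-0 spread more than those of *ubp5* in most members. The median coefficient of variation of the CPM over the 73 members was 23.6% in *ubp5* and 38.2% in Col-0, and it was larger in Col-0 for 58 members. Col-0 replicate 1 was the lowest Col-0 library for 48 members, and *ubp5* replicate 1 was the highest *ubp5* library for 38. All members were measured in the same libraries, so these counts of members are not independent. The spread over all genes is not given, and whether the wider Col-0 spread is particular to chloroplast transcripts was not tested. The number of members called at both thresholds moved with the libraries included. It was 0 without *ubp5* replicate 1, without Col-0 replicate 1 or without Col-0 replicate 2, and 1 without *ubp5* replicate 3. It was 10 of 75 tested without Col-0 replicate 4, all higher, against 1.88% of all genes called higher and 2.87% called lower in that fit. The median log2 fold change of the members was then 0.65, with 72 positive. Col-0 replicate 4 was the highest Col-0 library for 51 of the 73 members. Leaving it out therefore raises most of their fold changes by construction. For the other fits that left out 1 library, the share of all genes called is not given. A change in the members and a change in the calling rate cannot be told apart there.

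Compared with the chloroplast total in place of the library total, the split of directions was more even. Scaling to the sum of the members pulls their fold changes towards 0 by construction. With library sizes set to the chloroplast counts, a scaling chosen after seeing the data, the median log2 fold change of all genes moved to -0.44, that of the 73 members was 0.10, and 46 members were positive and 27 negative. ATCG01080 was called on this scale (log2 fold change 1.01, edgeR adjusted p = 0.0339), ATCG00040 had 0.64 with an adjusted p of 0.0463, and ATCG00120 and ATCG00200 had 0.70 and 0.77 with adjusted p of 0.0609 and 0.0836. ATCG00340, ATCG00220, ATCG01020 and ATCG00470, higher on the library scale, had -0.18, -0.23, -0.20 and -0.21 here. None of these 4 passed the test on either scale. The share of all genes called on the chloroplast scale is not given.

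For 8 of the 73 members, the highest share of chloroplast counts was at least 1.5 times that of any other library, and for 4 of these the high library was *ubp5* replicate 4. As a share of the chloroplast counts, ATCG00090 took 1.73%, 1.73%, 1.59% and 3.81% in *ubp5* replicates 1 to 4, against 0.936%, 1.10%, 1.76% and 1.55% in Col-0. ATCG00080 took 1.14%, 1.11%, 1.03% and 2.69% in *ubp5* against 0.576%, 0.753%, 1.29% and 1.08% in Col-0. ATCG00650 took 1.55%, 1.51%, 1.31% and 2.91% in *ubp5* against 1.29%, 1.50%, 1.23% and 1.65% in Col-0. ATCG00500 took 0.424%, 0.320%, 0.439% and 0.763% in *ubp5* against 0.477%, 0.388%, 0.310% and 0.466% in Col-0. In all 4, *ubp5* replicate 4 lay above the other 7 libraries, although it was the lowest *ubp5* library in CPM for 37 of the 73 members. The remaining 4 were ATCG00530, high in *ubp5* replicate 1, ATCG00630, high in Col-0 replicate 4, and ATCG00360 and ATCG00700, high in Col-0 replicate 3. ATCG00700 had only 83 counts over all libraries, 24 of them in Col-0 replicate 3, so its counting error was large. All 8 members were picked out after their values were seen.

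**Figure D5:**
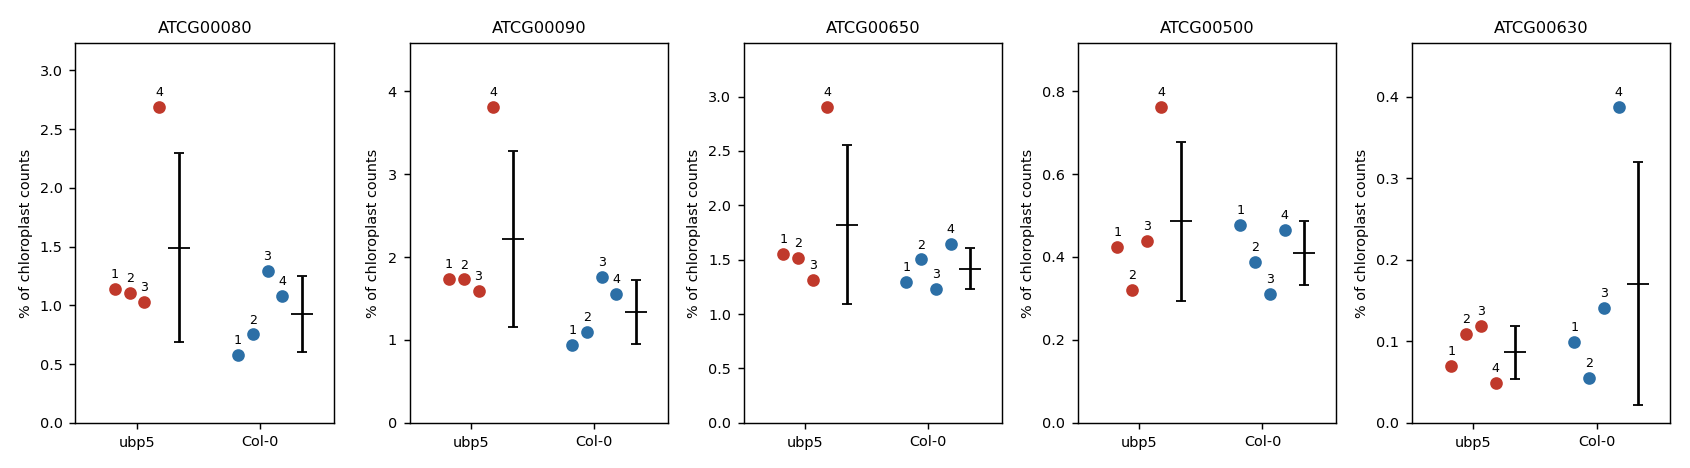
Share of all chloroplast counts taken by ATCG00080, ATCG00090, ATCG00650, ATCG00500 and ATCG00630 in each library, with numbered points for the replicates, *ubp5* on the left and Col-0 on the right, and black marks for the mean and SD. In the first 4 panels *ubp5* replicate 4 is the highest library, at 2.69%, 3.81%, 2.91% and 0.763%, and in the last Col-0 replicate 4 is, at 0.388%.

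The nuclear genes that read and process the chloroplast genome showed no called change in the tested set. Of the 8 nuclear plastid polymerases and sigma factors, 7 passed the filter of the edgeR fit. All 7 had negative log2 fold changes, with a median of -0.17. Of these 7, 0 were called by edgeR or DESeq2 and 1 had an unadjusted p under 0.05. The remaining gene, SIG5, did not pass the filter, and DESeq2 called it lower (log2 fold change -1.88, adjusted p = 0.0148). SIG2, which guides the plastid polymerase to transfer RNA promoters, had 71.8 ± 4.90 CPM in *ubp5* and 78.9 ± 8.04 CPM in Col-0 (SD, n = 4 each; log2 fold change -0.14 ± 0.11, edgeR adjusted p = 0.474). SIG1, SIG3, SIG4 and SIG6 had log2 fold changes of -0.23, -0.19, -0.07 and -0.03 with adjusted p between 0.495 and 0.905. Among the 12 proteins that associate with the plastid-encoded polymerase, 0 were called by edgeR or DESeq2 (2 at an unadjusted p under 0.05), and among 6 plastid ribonucleases and RNA-binding proteins 0 were called (0 also at an unadjusted p under 0.05 and by DESeq2). Of all 15649 genes in the edgeR fit, 1.91% were called higher and 2.93% lower, and 4017 had an unadjusted p under 0.05. In sets this small, 0 calls is near that background.

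SIG5 (AT5G24120), the sigma factor known for its response to light and stress, was too rare for the filter of the main fit. It had 4, 6, 1 and 5 counts in *ubp5* against 9, 17, 27 and 24 in Col-0, or 2.04, 2.29, 0.704 and 2.26 CPM in *ubp5* against 3.42, 6.75, 10.2 and 8.03 CPM in Col-0. Every *ubp5* library was below every Col-0 library, and *ubp5* replicate 3 was under the floor of 3 counts. Its log2 fold change was -1.86 ± 0.42 (SE, adjusted p = 0.00769) in edgeR without the filter on low counts and -1.88 (adjusted p = 0.0148) in DESeq2. SIG5 was thus lower in *ubp5* in both of these fits, and its values in other fits that included it are not given.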

How the data were processed

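RNA-seq libraries of 4 *ubp5* and 4 Col-0 samples of 12-DAG seedlings were analysed. They came from total RNA by oligo(dT)-primed 3′ sequencing with unique molecular identifiers. The authors trimmed poly(A) from 55-base reads with BRBseqTools, mapped them with STAR 2.7.8a to TAIR10 (Araport11 genes), dropped reads with several positions, and deposited counts of distinct molecules per gene on the sense strand, with no normalization or pooling. Reads from repeated sequence were therefore lost. RNA from genes that overlap on the same strand may be assigned to neither or to a neighbour.

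The deposited counts were tested with edgeR 4.0.16 (quasi-likelihood test, TMM, filterByExpr, no covariates) in R 4.3.3, with Benjamini-Hochberg adjustment over 15649 genes. A call needed an adjusted p under 0.05 together with a change of at least 1 on the log2 scale. CPM used TMM-scaled library sizes, and SEs came from the fold change and F statistic. Alternatives were DESeq2 1.42.0, other scaling and filters, a replicate block, leaving out each library, and, chosen after seeing the data, scaling to chloroplast counts. The procedure was tested on simulated counts. Plastid sequences are RefSeq's (TAIR10.1, read with Biopython 1.88), whose locus tags differ from the identifiers in the counts, so planned summaries by gene role and by position were not made.

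The members and lists were chosen with earlier results of these data known. Named genes were UBP5, members with an adjusted p under 0.05, the 15 with the most counts, those nearest the minimum, list genes with an adjusted p under 0.05 and otherwise the SIG genes. Members with a matched plastid gene, ATCG01080, ATCG00080, PYK10, members high in 1 library and members with negative fold changes were added after seeing their values. Results for 1 item are not reported here.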

Additional observations from a re-analysis of the deposited data

Results flagged for a closer look

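In groups of 4 libraries, the gap between the most extreme library and its nearest neighbour, divided by the range of the group, exceeded Dixon's 95% critical value in 4 of the 88 groups examined. Chance would flag about 1 in 20 independent groups. These groups share the same libraries, so 4 of 88 cannot be weighed against that rate. The groups did not cover all tested members, and they included members named because 1 library was high. Col-0 replicate 4 held 1.03% mitochondrial counts, against 0.423% to 0.522% in the other Col-0 libraries (ratio of gap to range 0.838). ATCG00530, matched to cemA, had 287 CPM in *ubp5* replicate 1, against 126 to 152 CPM in the other *ubp5* libraries (0.836). ATCG00500 had 199 CPM in Col-0 replicate 4, against 117 to 119.9 CPM in the other Col-0 libraries (0.964). SIG3 had 44.2 CPM in Col-0 replicate 4, against 29.7 to 31.4 CPM in the other Col-0 libraries (0.887). Apart from ATCG00530, each flag fell on Col-0 replicate 4.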

How the results depend on the processing

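The count of called chloroplast members was 2 in the fit reported, and 4 without a filter on low counts, 4 with the replicate number as a block, 8 without the fold threshold and 1 with library sizes set to chloroplast counts. With 1 library left out it ran between 0 and 10. DESeq2, its size factors in edgeR, scaling on nuclear genes and a mean of at least 10 counts gave 3, 3, 2 and 2. Of all genes, 1.91% were called higher and 2.93% lower in the fit reported. These shares were 4.59% and 6.34% without the fold threshold, and 1.42% and 1.96% in DESeq2. Apart from the fit without Col-0 replicate 4, no such share is given for the other settings. Nothing in the labels ties same-numbered libraries together, their correlations over genes ran between -0.12 and 0.03, and 1 of the 4 *ubp5* libraries correlated best with its own number. With the block, 5 of the 8 members with an adjusted p under 0.05 were above it, at 0.0548 to 0.0811. The log2 ratio of the chloroplast share was 0.40. It reversed to -0.27 against mitochondrial counts and stayed positive in the other alternatives run. Relative to chloroplast counts, log2 fold changes reversed for ATCG00220 (-0.23), ATCG00330 (-0.13), ATCG00340 (-0.18), ATCG00420 (-0.17), ATCG00470 (-0.21), ATCG00480 (-0.0509), ATCG00670 (-0.34), ATCG00740 (-0.15), ATCG01020 (-0.20) and ATCG01130 (-0.0192), which follows from that scaling. With 1 library left out, log2 fold changes ran between -0.0185 (without *ubp5* replicate 1) and 0.20 for ATCG00670, between -1.10 and 0.26 (without Col-0 replicate 4) for ATCG00630, between -0.18 and 0.0605 (without Col-0 replicate 4) for SIG4, and between -0.11 and 0.0861 (without Col-0 replicate 4, and 0.00342 without *ubp5* replicate 2) for SIG6. For ATCG00065 they ran between -0.30 and 0.44 (0.0117 without *ubp5* replicate 1, 0.0155 without *ubp5* replicate 3, 0.00641 without Col-0 replicate 3), for ATCG00270 between -0.26 and 0.0597, and for ATCG00700 between -0.46 and 0.26 (both highest without Col-0 replicate 3). ATCG00065 was at 0.0316 with the block. The share over members outside the inverted repeat was not run, because the positions of the identifiers were not known. The counts measure only RNA reached by oligo(dT), low members carry large counting error, and members in repeated sequence could not be counted.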
